A study of Mus musculus with 12 samples.

Results

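The mRNA of mouse embryonic stem cells labelled with a partial deletion of Alkbh5 was compared with that of cells labelled as Alkbh5 knockout (KO). Alkbh5 is a dioxygenase that removes the methyl group of N6-methyladenosine (m6A), a mark that a nuclear methyltransferase complex places on mRNA and that reader proteins recognise to alter splicing, export, translation and decay. Outside its folded catalytic domain the enzyme has intrinsically disordered stretches. The del-cIDR genotype is named for the loss of the C-terminal one (cIDR). The comparison asks which genes separate a truncated enzyme from a missing one. Its members are the 4 input libraries of these genotypes, 2 of del-cIDR and 2 of KO, out of 12 samples in the series. These libraries were chosen by genotype and library type, with no measured value, though earlier results of these data were known when the comparison was chosen.

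All groups are E14TG2a cells, an established mouse line, grown with 1000 U/ml LIF, 1 µM PD0325901 (an inhibitor of MEK) and 3 µM CHIR99021 (an inhibitor of GSK3), conditions that hold the cells in a naive state. The genotypes are Alkbh5 del-cIDR, Alkbh5 KO and WT, and each has 2 input and 2 m6A immunoprecipitation samples. Only the input libraries, sequenced before precipitation, are used for mRNA levels here, and the WT input libraries are given beside the other genotypes. Separate cultures for the replicates are not mentioned in the labels, nor is the number of clones behind each genotype, so p-values measure only how much these samples vary, and that may be technical. In bulk RNA, a smaller number of cells of one kind cannot be told apart from less RNA in each cell.

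The gene table identifies genes by Ensembl identifier only. None of the 49997 genes of the RefSeq reference table (GRCm38.p6) carries such an identifier, so 0 could be matched. For that reason no gene is given under a symbol, the level of Alkbh5 itself could not be used to check the genotypes, marker genes could not be set against the stem cell label, and no gene list by pathway or cell type could be counted. At most 2 genes in each direction are given by identifier, and the rest of the comparison is described by counts and levels.

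The 4 libraries held 30978068 and 19918177 reads in genes for del-cIDR and 36678609 and 33014087 for KO, and the WT libraries held 25105719 and 34035774. Levels are given as RPM, the reads of a gene for each 1000000 reads in genes of its library. Of 56941 genes listed, 33711 had a read in at least 1 input library and 14851 had a mean of at least 1 RPM over the 6 libraries and were tested. Between 16880 and 19052 genes per library reached 10 reads, with the lowest number in the shallowest library, del-cIDR replicate 2. The 10 most abundant genes took 2.56% to 3.18% of the reads of a library. Replicates were not copies of each other, since their reads differed by 7.06 times the sampling variance in del-cIDR and 3.29 times in KO.

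The libraries grouped by genotype. Over the tested genes, Pearson's correlation of log2 levels was 0.995 between the del-cIDR replicates and 0.997 between the KO replicates. It was 0.977 to 0.978 between a del-cIDR and a KO library. These values are across genes, which are not independent replicates. On the first principal component, with 65.6% of the variance, the del-cIDR libraries lay at -23.3 and -24.2 and the KO libraries at 32.5 and 32.6, with the WT libraries at -9.16 and -8.50. The second, with 16.5%, placed del-cIDR at 8.49 and 15.1, KO at 3.09 and 5.47 and WT at -15.4 and -16.7. KO and del-cIDR were therefore at the ends of the first component and WT at the end of the second.

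The gene with the largest rise in del-cIDR relative to KO was ENSMUSG00000068457. Its level was 15.6 and 15.8 RPM in the del-cIDR libraries (482 and 315 reads) and 0.436 and 0.545 RPM in the KO libraries (16 and 18 reads). In WT it was 5.10 and 6.99 RPM. A low level of this transcript was thus measured in KO, and WT lay between the other genotypes without overlap. The 4 genes given by identifier were chosen among called genes whose del-cIDR and KO libraries do not overlap, so that separation is a description. WT values entered the filter on mean level and the spread of the fit. The position of WT relative to the other genotypes was not itself a condition of the choice. Choosing the largest gaps puts del-cIDR and KO far apart, which favours a middle position for WT, so that position is also a description. Where these genes lie in the genome was not analysed here. Whether any of them share a chromosome or a locus, and hence whether they are separate differences between the genotypes, was not tested. It was also not tested whether the cells of the genotypes differ in chromosome content. The del-cIDR mean of 15.7 ± 0.18 RPM was 32.0 times the KO mean of 0.491 ± 0.077 RPM (SD, n = 2 each), and the WT mean was 6.05 ± 1.34 RPM (SD, n = 2). The log2 difference was 4.03 (SE 0.18, limma adjusted p = 8.88e-12), which the added 0.5 RPM shrinks. edgeR's quasi-likelihood test on the reads gave 5.00 (adjusted p = 2.86e-11).

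ENSMUSG00000069045 had the second largest rise and was more deeply covered. Its level was 81.7 and 75.3 RPM in del-cIDR (2532 and 1499 reads), 4.88 and 5.57 RPM in KO (179 and 184 reads) and 30.0 and 24.2 RPM in WT. The order of the genotypes was the same as for the first gene, with del-cIDR highest, WT in the middle and KO lowest; whether the 2 genes are independent of each other was not tested. The ratio of the del-cIDR mean (78.5 ± 4.58) to the KO mean (5.23 ± 0.49) was 15.0 (SD, n = 2 each). The log2 difference was 3.79 (SE 0.11, limma adjusted p = 1.92e-14).

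ENSMUSG00000005892 had the largest fall in del-cIDR relative to KO. It had 5.04 and 4.37 RPM in del-cIDR (156 and 87 reads) and 61.5 and 60.6 RPM in KO (2256 and 2000 reads), with 23.5 and 24.8 RPM in WT. All 3 genotypes were apart, and here KO was the highest. The KO mean of 61.0 ± 0.66 was 13.0 times the del-cIDR mean of 4.70 ± 0.47 (SD, n = 2 each). The log2 difference, del-cIDR minus KO, was -3.57 (SE 0.10, limma adjusted p = 1.92e-14).

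ENSMUSG00000066652 was the most abundant of the 4 in KO. It stood at 202 and 203 RPM in the KO libraries (7412 and 6708 reads), 20.7 and 20.1 RPM in del-cIDR (641 and 400 reads) and 48.1 and 43.2 RPM in WT. The KO libraries were far above both others, and WT lay above del-cIDR. The KO mean of 202.6 ± 0.78 was 9.94 times the del-cIDR mean of 20.4 ± 0.43 (SD, n = 2 each). The log2 difference was -3.28 (SE 0.07, limma adjusted p = 3.96e-16).

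**Figure D1:**
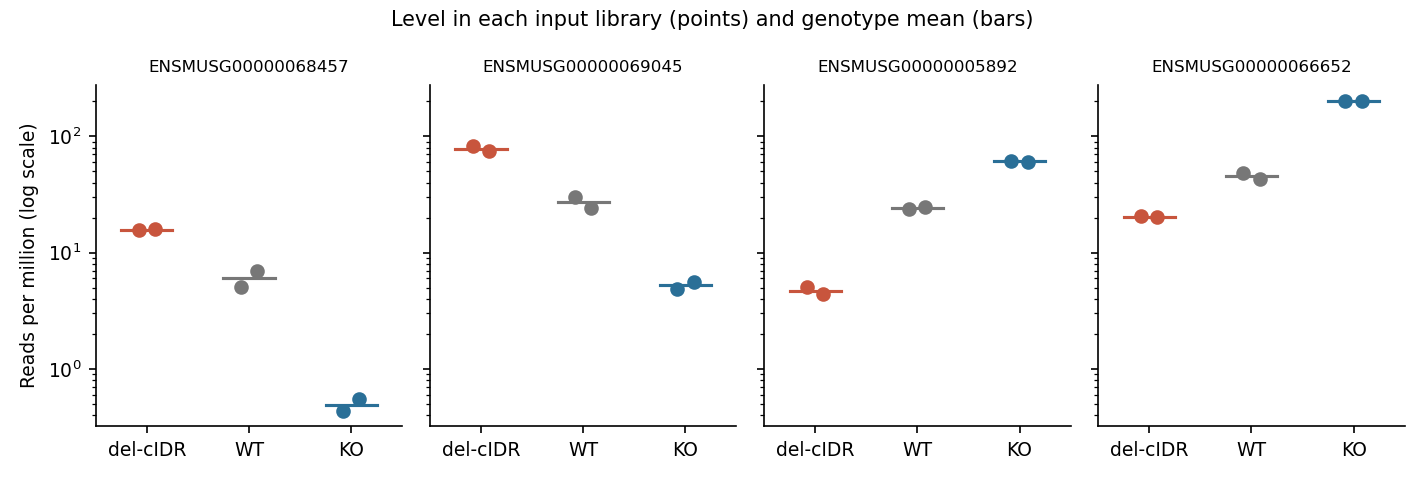
RPM (log scale) of the 4 genes in each input library (points) with the genotype mean (bars), for del-cIDR, WT and KO. In each panel the WT libraries sit between the del-cIDR and the KO libraries. The separation of del-cIDR from KO was a condition of choosing these genes, and large gaps favour a middle position for WT.

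For each of the 4 genes both altered genotypes also differed from WT in the same fit, and these differences share the WT libraries. The genes were chosen for a large gap between del-cIDR and KO, and the same libraries are reused here. The p-values against WT are therefore a description of chosen genes. For ENSMUSG00000068457 the log2 difference from WT was 1.32 in del-cIDR and -2.71 in KO (SE 0.18 each; limma adjusted p = 9.91e-05 and 3.63e-09). ENSMUSG00000069045 had 1.53 in del-cIDR and -2.26 in KO (SE 0.11 each; limma adjusted p = 5.69e-08 and 6.00e-11). The gap between the genotypes was thus made up of a rise over WT in del-cIDR and a larger fall below WT in KO. For ENSMUSG00000005892 the values were -2.25 in del-cIDR and 1.32 in KO (SE 0.10 each; limma adjusted p = 8.36e-11 and 2.58e-08). For ENSMUSG00000066652 they were -1.14 and 2.14 (SE 0.07 each; limma adjusted p = 1.11e-08 and 8.92e-13). Both of these genes therefore lay below WT in del-cIDR and above WT in KO. The larger part of the gap was on the del-cIDR side for ENSMUSG00000005892 and on the KO side for ENSMUSG00000066652.

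Across all tested genes, del-cIDR exceeded KO for 2982 and fell short of it for 3388 (limma, adjusted p under 0.05). That is 20.1% and 22.8% of the genes tested, or 42.9% in both directions. The del-cIDR libraries lay wholly above or wholly below the KO libraries for 6365 of the 6370 called genes, while the same held for 10716 genes, or 72.2%, of all tested. The median log2 difference over all tested genes was -0.01. edgeR called 3209 higher and 3309 lower, 43.9% of the genes. Of limma's calls, 6258 were also called by edgeR in the same direction, and none in the opposite one.

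The balance of higher and lower genes rests on the RPM scale, in which each library sums to the same total. The deposited values are instead scaled to a control RNA, which gave 14.8 and 27.5 reads for each 1000000 reads in genes in del-cIDR and 28.1 and 38.6 in KO. On that scale del-cIDR exceeded KO for 407 genes and fell short of it for 12 (97.1% of calls higher, against 46.8% on the RPM scale), and the median log2 difference over tested genes was 0.66. The library medians of log2 values were 5.09 and 4.17 in del-cIDR and 4.19 and 3.74 in KO, so del-cIDR replicate 2 lay below KO replicate 1, and the libraries of the genotypes overlapped. All further values are on the RPM scale, relative to the other genes of the same library. The 4 genes kept their directions on the deposited scale, at 4.39 for ENSMUSG00000068457 (SE 0.47), 4.43 for ENSMUSG00000069045 (SE 0.51), -2.87 for ENSMUSG00000005892 (SE 0.51) and -2.58 for ENSMUSG00000066652 (SE 0.51), with limma adjusted p-values of 7.41e-17, 3.81e-14, 1.15e-05 and 0.000136.

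**Figure D2:**
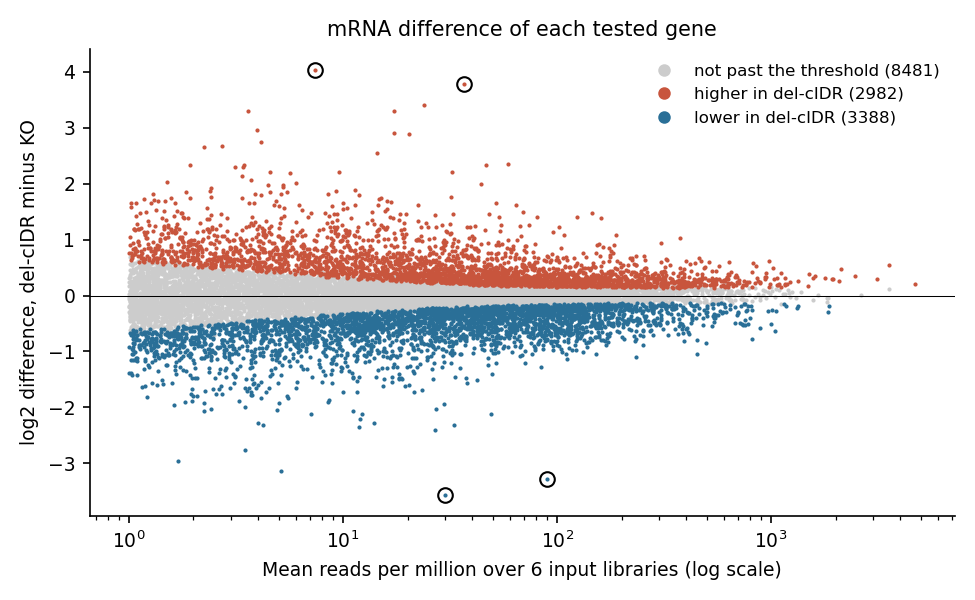
Log2 difference, del-cIDR minus KO, of each of the 14851 tested genes against its mean RPM over the 6 input libraries (log scale), with called genes in colour and the 4 genes given by identifier circled. Calls lie on both sides of 0 at every level, and the 4 circled genes stand away from the cloud.

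Most differences were small. The median log2 difference of called genes was 0.42 where del-cIDR was higher and -0.51 where it was lower. Among called genes, 1008 were at least 1.5-fold higher and 1364 at least 1.5-fold lower in del-cIDR. At 2-fold, 322 genes were higher and 353 lower, 2.17% and 2.38% of the genes tested (4.55% in both directions), and 10.6% of the called genes. At 4-fold there were 26 and 20 genes, and at 8-fold 5 and 3. All 675 genes at 2-fold were also called by edgeR in the same direction. Most called genes thus differed by less than 1.5-fold, and a short list of genes had the large gaps.

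The 46 genes at 4-fold or more, 0.722% of the called genes, did not overlap between del-cIDR and KO, as held for 72.2% of all tested genes. Their largest limma adjusted p was 2.64e-06, and the higher genotype had at least 45 reads in each library. Of the 26 that were higher in del-cIDR, the median level was 7.64 RPM in del-cIDR (range 2.58 to 90.4), 1.01 RPM in KO (0.211 to 17.3) and 5.99 RPM in WT (1.53 to 68.8). Of the 20 that were lower, it was 4.09 RPM in del-cIDR (0.158 to 21.3), 20.5 RPM in KO (4.57 to 202.6) and 6.62 RPM in WT (0.315 to 45.7). In both sets the median of WT lay nearer to that of del-cIDR. These genes were chosen by their calls and by the difference between del-cIDR and KO. The lack of overlap, the p-values and the medians are therefore a description.

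The sets at 2-fold gave a like picture with smaller gaps. The 322 higher genes had a median of 7.85 RPM in del-cIDR, 2.62 RPM in KO and 5.95 RPM in WT. The 353 lower genes had a median of 2.92 RPM in del-cIDR, 8.11 RPM in KO and 4.02 RPM in WT. The higher genes held 0.682% and 0.659% of the reads in the del-cIDR libraries, 0.259% and 0.254% in the KO libraries and 0.508% and 0.518% in the WT libraries. The lower genes held 0.314% and 0.300%, 0.767% and 0.763%, and 0.438% and 0.459%, in the same order. Replicates differed little in these shares, and neither set held more than 0.767% of the reads of a library. The genes were chosen by calls and fold in the same libraries, which favours replicates that agree, so the shares are a description.

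**Figure D3:**
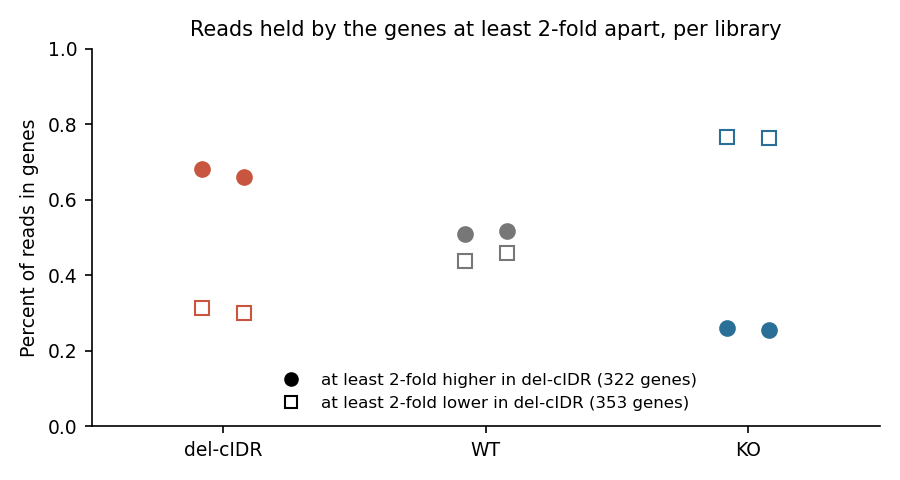
Percent of the reads in genes held by the 322 genes at least 2-fold above KO in del-cIDR (filled circles) and the 353 genes at least 2-fold below it (open squares), for each input library. The genes were chosen by the del-cIDR and KO values; WT libraries, at 0.508% and 0.518% and at 0.438% and 0.459%, lie between them.

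All called genes together, including the 675 at 2-fold or more, held far more of the RNA than those 675 alone. The 2982 genes called higher in del-cIDR held 31.3% and 32.1% of its reads and 25.1% and 25.2% of those of KO, with 29.9% and 29.1% in WT. The 3388 genes called lower held 21.1% and 20.8% of the del-cIDR reads and 27.8% and 27.8% of the KO reads, with 22.8% and 23.4% in WT. Both sets were chosen by calls from these same libraries, so the direction of the shares between del-cIDR and KO is a description.

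Calls and large differences were found at opposite ends of the expression range. The tested genes were put into 5 classes of equal size by mean level. In the lowest class, 1.00 to 3.69 RPM, 393 were higher and 465 lower in del-cIDR, or 28.9% called. In the highest class, 88.3 to 4725 RPM, 766 were higher and 773 lower, or 51.8%. The median SE of a log2 difference was 0.22 in the lowest class and 0.06 in the highest, so smaller differences could pass the test in abundant genes. Differences of at least 2-fold ran the other way, with 116 higher and 136 lower genes in the lowest class (8.48%) and 8 and 8 in the highest (0.539%). The median size of the log2 difference was 0.35 in the lowest class and 0.16 in the highest. The larger SE of the lowest class also widens its observed differences. Whether genes of low level changed more was not tested. ENSMUSG00000066652, at -3.28, had the largest fall of the highest class, where the largest rise was 1.48.

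**Figure D4:**
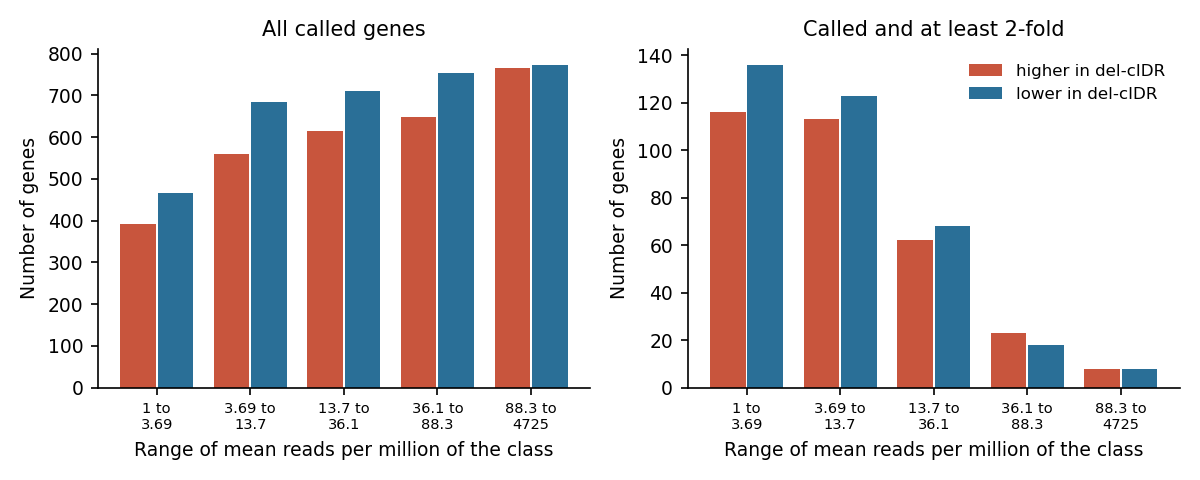
Number of called genes (left) and of called genes at least 2-fold apart (right) in 5 classes of equal size by mean RPM, drawn apart for genes above and below KO in del-cIDR. Calls rise from 393 and 465 in the lowest class to 766 and 773 in the highest, while genes at least 2-fold apart fall from 116 and 136 to 8 and 8.

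Almost no gene was present in one genotype and near absent in the other. With a limit of 3 reads over both libraries on one side and 20 reads in each library on the other, 1 gene was near absent in KO and 3 in del-cIDR. None of these 4 reached the mean level needed for testing, and their largest number of reads in a library was 31 in the first case and 40 in the second. ENSMUSG00000068457, with 16 and 18 reads in KO, is not among them.

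The sizes of the differences were set beside those between replicates and from WT. The median size of a log2 difference between del-cIDR and KO means was 0.23, and 10% of genes exceeded 0.74. Single del-cIDR replicates differed from each other by a median of 0.12 and KO replicates by 0.07, with 10% of genes over 0.36 and 0.27. Between KO and WT means the median was 0.18, with 10% of genes over 0.58. Between del-cIDR and WT means it was 0.13, with 10% over 0.42. The 3 comparisons of means share libraries, and the sizes were not tested against each other.

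Leaving out a single library moved no count by over 1.5 times, though leaving out a KO library came close to that limit. With each of the 6 libraries left out in turn, 2000 to 2997 genes were above KO in del-cIDR and 2309 to 3420 below, and the lowest numbers came without a KO library. The 4 genes given by identifier kept their direction under every one of the 20 alternatives run. They were chosen for large gaps in the same reads that the alternatives use, so this is a description.

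**Figure D5:**
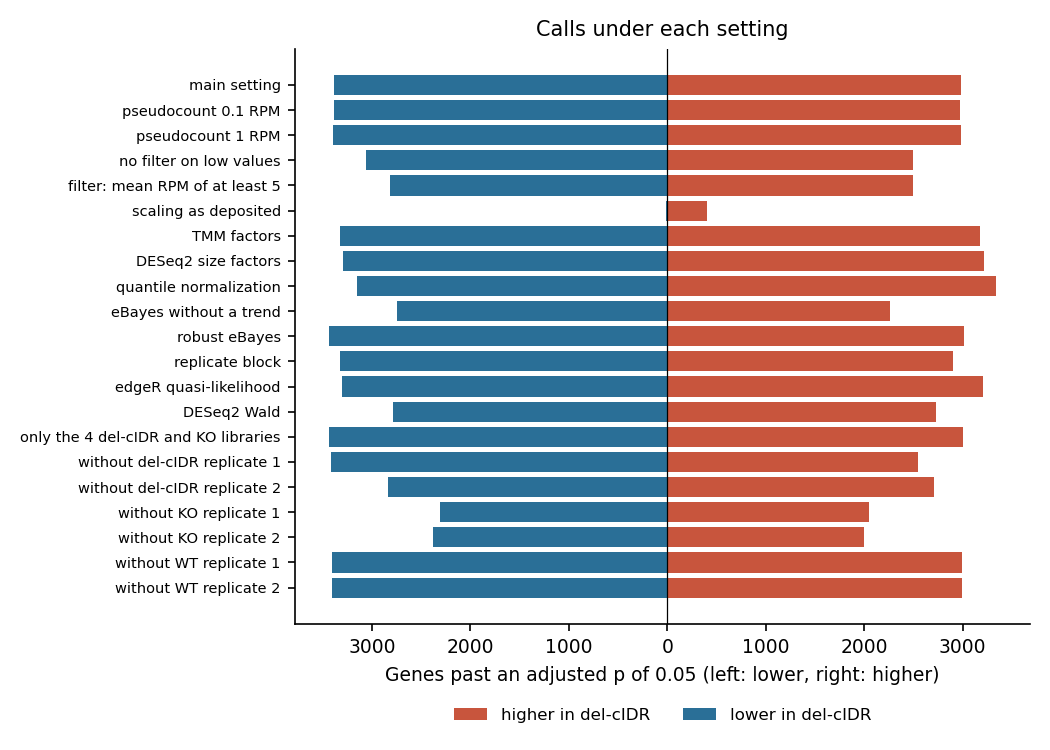
Number of genes below (left) and above (right) KO in del-cIDR at an adjusted p of 0.05 under the main setting and each of the 20 alternatives. Genes above KO make up 42.7% to 51.5% of the calls except under the deposited scaling, with 407 above and 12 below.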

How the data were processed

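The build is GRCm39, and HISAT2 and featureCounts are among the tools listed, per the submitters' processing notes, which give neither versions nor what each did. The deposited mRNA signal is reads per gene times 1 factor per library, 2.77 and 2.33 in del-cIDR, 1.23 and 1 in KO and 2.98 and 2.11 in WT. Where the factor is 1 (KO replicate 2) the deposited values are counts. Dividing by each library's smallest value above 0 gave whole reads for 100% of values (tolerance 0.001). The factors equal 1273 divided by 459 and 547 (del-cIDR), 1031 and 1273 (KO) and 427 and 602 (WT). The deposited m6A ratio table was used only to identify these numbers. It has a row named as an m6A control at 4.10 in every library. Relative to it, the largest prime factor of the library's number divided the numerators of 94.0% to 99.9% of the peak ratios, where 0.097% to 5.88% would by chance, so these are the control's input reads. Their counting error is 2.80% to 4.84%.

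Values of log2(RPM + 0.5) of the 6 input libraries were fitted by genotype with limma 3.58.1 in R 4.3.3, using eBayes with a trend on level, and p-values of 14851 genes were adjusted after Benjamini-Hochberg, with a threshold of 0.05. A fold change on this scale understates changes of low genes. The recovered counts were also tested with edgeR 4.0.16 and DESeq2 1.42.0. Genes given by identifier are the 2 with the largest difference in each direction among called genes with at least 5 RPM on average over the 4 libraries and no overlap. Deviations of same-numbered replicates correlated at 0.12, -0.11 and -0.12 between the genotypes, and the main fit did not pair the samples. With 1 pair of replicates per genotype, these values cannot decide whether equal numbers mark a shared culture or batch. Reads were also simulated for del-cIDR against KO, with 100 genes changed 2-fold and 100 changed 4-fold in del-cIDR alone. All other genes had the same mean level in every genotype, and the spread was estimated from these libraries. There limma recovered 93.9% of 98 tested genes changed 2-fold and 100% of 97 changed 4-fold, with 12 false calls among 14867 genes. In the data 42.9% of genes were called, so these rates do not carry over to the calls above. Comparison, lists and settings were chosen with earlier results of these data known. Plots used Python 3.11.15 and matplotlib 3.10.9.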

Additional observations from a re-analysis of the deposited data

How the results depend on the processing

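On the deposited scale del-cIDR exceeded KO for 407 genes and fell short of it for 12, each by at least 2-fold, with 2706 genes at an unadjusted p under 0.05. This scale adds the spread of the control's factor to every gene. With a mean of at least 5 RPM required, fewer genes were tested (11214), and 171 were at least 2-fold higher and 176 at least 2-fold lower. Under the other alternatives each count stayed within 1.5 times its main value. With a replicate block, 2904 genes were higher and 3323 lower; the labels do not say that equal numbers mark a shared batch, and their deviations did not move together in all pairs. Leaving out each library in turn gave 318 to 363 genes at least 2-fold higher and 334 to 437 at least 2-fold lower. In these fits the single library left in a group takes its spread from the remaining groups. Genes under 1 RPM were not tested in the main setting.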
